A study of Mus musculus with 8 samples.

Results

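Integrins are the cell-surface receptors through which cardiac fibroblasts hold on to extracellular matrix. The 10 subunit genes described here were chosen by name from the 34399 gene symbols of the deposited count tables. They are the alpha subunits Itga1, Itga4, Itga5, Itga8, Itga11 and Itgav and the beta subunits Itgb1, Itgb3, Itgb5 and Itgb8. Each of the 10 was counted in every library.

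RNA was sequenced from GFP+ cardiac fibroblasts sorted from ventricles of mice 4 weeks after transverse aortic constriction (TAC), an operation that loads the left ventricle with pressure. There were 8 libraries in 4 groups of 2. In Smad2/3 DKO cells (libraries HK15 and HK16), a Cre driven from the Postn locus had recombined Smad2 flox/flox and Smad3 flox/flox alleles, and Postn-Cre control cells (HK3 and HK4) carried the same driver without floxed alleles in the labels. In Tgfbr1/2 DKO cells (HK2 and HK4), a Cre driven from the Tcf21 locus had recombined floxed Tgfbreceptor1 and Tgfbreceptor2 alleles, with Tcf21-Cre control cells (HK6 and HK7) as their counterpart. All groups shared a knocked-in MerCreMer (a tamoxifen-dependent Cre), a Cre-dependent eGFP reporter in the Rosa locus, tamoxifen by injection at 100 mg/kg on 2 days and then in chow at 40 mg/kg, and surgery at 8 to 10 weeks of age. Postn is switched on in activated fibroblasts and Tcf21 marks resident ones, so the drivers label overlapping but different populations, and each comparison was sequenced in a run of its own. Run, driver and targeted genes therefore cannot be told apart between the comparisons. The labels do not say whether the libraries of a group came from separate mice or from pools, so p-values measure the spread between these libraries, which may be technical.

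An integrin is a pair of 1 alpha and 1 beta chain, and the pairing sets the ligand. The beta-1 chain pairs with every alpha chain named here, giving the fibronectin receptor with alpha-5, collagen receptors with alpha-1 and alpha-11, and receptors for fibronectin and other RGD-bearing proteins with alpha-8 and alpha-v. The alpha-v chain also pairs with beta-3, beta-5 and beta-8, and alpha-v pairs can pull active TGF-beta out of its latent complex, so that in fibroblasts integrins act both as anchors and as upstream regulators of the pathway whose receptors and Smads were deleted here.

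Reference promoter windows, from 250 bases before to 50 bases after the annotated start (RefSeq, GRCm38.p6, gene strand), were found for 9 of the 10 genes. The windows are shown for Itga5, the alpha subunit with the largest change in a knockout, for its partner Itgb1, which was not called in either knockout, and for Itga8, which was lower than control in every library of both knockouts. Capitals mark CAGAC or its reverse complement GTCTG (the Smad-binding CAGA box) and GGAATG or CATTCC (the TEAD motif), searched on both strands, and no matches overlapped.
Itga5, chr15:103366742-103367041, minus strand: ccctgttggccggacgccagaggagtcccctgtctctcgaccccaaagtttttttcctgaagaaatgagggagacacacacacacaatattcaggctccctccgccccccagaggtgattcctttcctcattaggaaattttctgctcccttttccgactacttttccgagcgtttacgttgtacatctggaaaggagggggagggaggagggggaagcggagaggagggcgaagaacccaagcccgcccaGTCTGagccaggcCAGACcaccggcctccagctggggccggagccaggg
Itgb1, chr8:128685404-128685703, plus strand: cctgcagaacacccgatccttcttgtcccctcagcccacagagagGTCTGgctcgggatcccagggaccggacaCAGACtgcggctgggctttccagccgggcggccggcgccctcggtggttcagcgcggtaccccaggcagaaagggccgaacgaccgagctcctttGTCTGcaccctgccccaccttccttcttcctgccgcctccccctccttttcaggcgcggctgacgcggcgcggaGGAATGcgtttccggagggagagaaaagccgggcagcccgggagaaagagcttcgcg
Itga8, chr2:12301895-12302194, minus strand: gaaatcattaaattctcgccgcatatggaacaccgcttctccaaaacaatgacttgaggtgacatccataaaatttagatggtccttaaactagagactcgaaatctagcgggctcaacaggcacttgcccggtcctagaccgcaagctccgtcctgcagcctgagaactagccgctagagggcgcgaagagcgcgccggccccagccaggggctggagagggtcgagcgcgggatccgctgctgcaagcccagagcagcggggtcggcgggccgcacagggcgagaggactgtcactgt

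The Itga5 window held 2 CAGA boxes, both downstream of the start, and 2 or more stood in 16.2% of the 32851 reference windows of this length. The Itgb1 window held 3 CAGA boxes, where 3.9% of all windows held 3 or more, and 1 TEAD motif, which 14.7% of windows held. No searched letters were present in the Itga8 window. Over the 9 genes, 5 windows held at least 1 CAGA box, against 49.6% of all windows, and none held the AP-1 motif TGANTCA, which 7.81% of all windows held. These matches describe the letters of the reference and say nothing of binding in these cells.

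Library totals ran between 21477664 and 32594508 counts, and each of the 10 subunit genes had between 172 and 22129 counts in a library. The targeted genes served as a check of the labels. In Smad2/3 DKO cells Smad2 had a log2 fold change of -0.19 ± 0.19 (SE) and Smad3 of -0.26 ± 0.23 over control. Tgfbr1 stood at -0.24 ± 0.19 and Tgfbr2 at 0.25 ± 0.20 in Tgfbr1/2 DKO cells. None of the 4 passed the test, and gene totals do not show whether the floxed exons were lost. The summed level of 10 fibroblast markers was between 18039 and 39539 CPM in all libraries (counts scaled to a library total of 1000000), with none at 0. The summed level of 10 endothelial markers was at most 531 CPM, that of 9 pericyte and smooth muscle markers at most 1563 CPM, that of 7 cardiomyocyte markers at most 753 CPM and that of 6 Schwann cell markers at most 49.7 CPM.

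Itgb1, the common beta chain, was the most abundant of the 10 genes, followed by Itga5. Per kilobase of merged exon, Itgb1 averaged 158 CPM per kb over the 8 libraries, Itga5 93.4, Itgb5 44.9, Itgav 35.2 and Itga11 29.9 CPM per kb. The other subunits were much lower, at 8.09 CPM per kb for Itgb3, 4.87 for Itgb8, 3.76 for Itga8, 3.59 for Itga1 and 0.812 for Itga4. Within Smad2/3 DKO cells the ranges of Itgb5 and Itgav overlapped, as did those of Itgb3 and Itga1, while all other neighbours in the order stood apart. Postn-Cre control cells had overlapping neighbours in Itgb8 with Itga8 and in Itga8 with Itga1. Tgfbr1/2 DKO cells had no overlapping neighbours. In Tcf21-Cre control cells the order differed, since Itga5 came below Itgb5 and Itga11, and the ranges of Itgb5 with Itga11, Itga11 with Itga5, Itgb3 with Itga8 and Itga8 with Itgb8 overlapped. With the length of the principal transcript in place of merged exons, Itgav, at 53.7 CPM per kb, came above Itgb5, at 48.6, and Itga1, at 6.08, above Itga8, at 4.77.

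**Figure D1:**
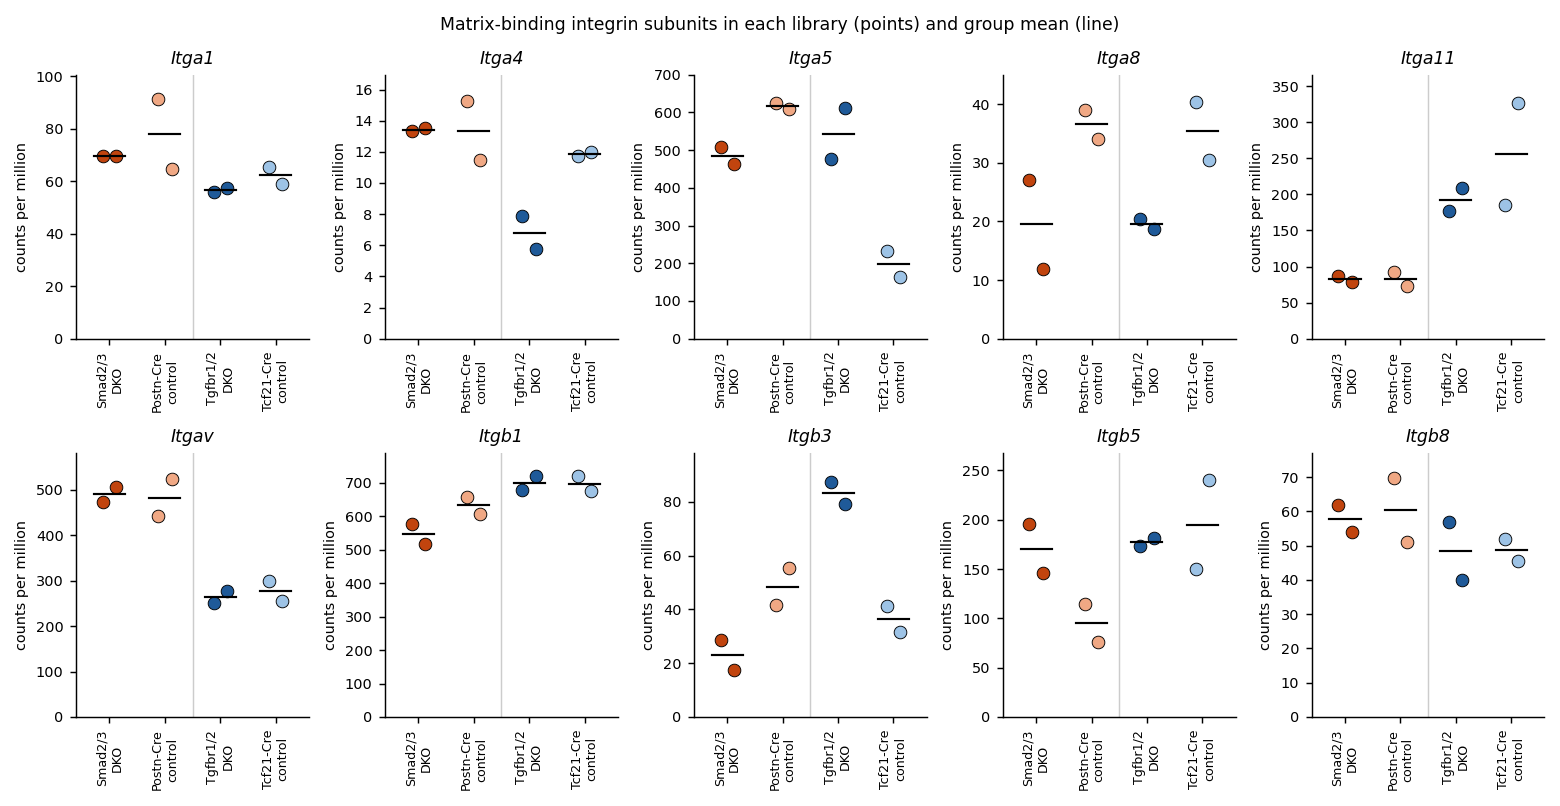
Level of each integrin subunit gene in CPM (vertical axes, each starting at 0) in the 4 groups (horizontal axes), with a point for each library and a line at the mean of the 2 libraries. Itga5 sits between 476 and 611 CPM in Tgfbr1/2 DKO cells and between 165 and 232 CPM in Tcf21-Cre control cells, and the ranges of Itgb3 are also apart there.

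Itga5 encodes alpha-5, the alpha chain of the classical fibronectin receptor (chr15:103344286-103366763, minus strand, GRCm38). It was measured at 476 and 611 CPM in Tgfbr1/2 DKO libraries, against 232 and 165 CPM in Tcf21-Cre control libraries. Both knockout libraries lay above both control libraries. The ratio of the means was 2.74, and the fitted log2 fold change was 1.55 ± 0.24 (SE; adjusted p = 0.00882, edgeR's quasi-likelihood test with Benjamini-Hochberg adjustment, as for every adjusted p given here). In Smad2/3 DKO libraries Itga5 was measured at 507 and 463 CPM, against 625 and 608 CPM in Postn-Cre control libraries. Here the knockout libraries lay below both controls, with a log2 fold change of -0.40 ± 0.14 that did not pass the test (adjusted p = 0.223). The Smad2/3 effect minus the Tgfbr1/2 effect was -1.96 ± 0.30 on the log2 scale (adjusted p = 0.0126), so the knockout effects on Itga5 differed. Each of these calls rested in part on 1 library. Without Tcf21-Cre control HK7 the Tgfbr1/2 fold change was 1.38 with an adjusted p of 0.0613, and without Smad2/3 DKO HK16 the difference was -1.91 with an adjusted p of 0.0601.

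Itgb3 encodes beta-3, which with alpha-v forms a receptor for vitronectin, fibronectin and osteopontin (chr11:104608000-104670476, plus strand, GRCm38). It followed the same pattern from a much lower level. Tgfbr1/2 DKO libraries held 87.4 and 79.3 CPM of Itgb3, against 41.1 and 31.5 CPM in Tcf21-Cre control libraries. Its log2 fold change was 1.28 ± 0.19 (adjusted p = 0.00699), and it passed the test with any 1 of the 4 libraries left out. Smad2/3 DKO libraries held 28.7 and 17.3 CPM, against 41.5 and 55.3 CPM in Postn-Cre control libraries. The groups did not overlap there either, but the log2 fold change of -1.13 ± 0.29 missed the threshold (adjusted p = 0.101). It passed under 2 of 11 alternatives, with no low-count filter (adjusted p = 0.00249) and with DESeq2 (adjusted p = 0.00645). With 1 library left out, this Smad2/3 value ran between -1.53 and -0.82. The difference between the knockout effects on Itgb3 was -2.42 ± 0.36 on the log2 scale (adjusted p = 0.0118) and passed with each library left out in turn, with an adjusted p of at most 0.0378.

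These were the calls among the 10 genes. Of the 10, Tgfbr1/2 DKO cells had 2 called, both higher, against 3.94% of the 16658 genes tested (2.64% called higher and 1.31% lower). In Smad2/3 DKO cells 0 of 10 were called, against 1.31% of 15760 genes (0.451% called higher and 0.857% lower). An unadjusted p below 0.05 was found for 4 of the 10 and for 2139 of the 15760 genes. DESeq2 called 2 of the 10 (Itgb3 and Itgb5) and 769 of the 15760. For the difference between the knockout effects 2 of 10 were called, both lower, against 1.83% of 17770 genes (0.664% called higher and 1.17% lower). The median log2 fold change of the 10 was -0.18 in Smad2/3 DKO cells and -0.02 in Tgfbr1/2 DKO cells, beside 0.01 and -0.01 over all genes tested. Libraries of knockout and control did not overlap for 5 of 10 genes in the Smad2/3 comparison, where 44.4% of all genes were so separated, and for 5 of 10 in the Tgfbr1/2 comparison, where 51.2% were. Those separations are near the background.

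**Figure D2:**
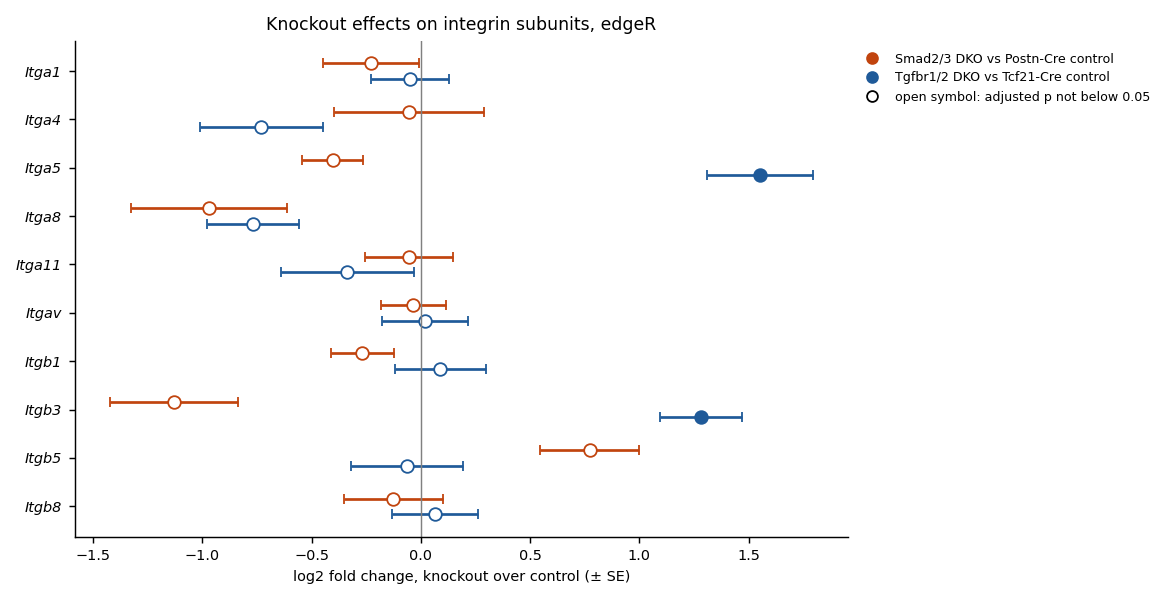
Log2 fold change of knockout over control (horizontal axis, bars are SE) for each subunit in the Smad2/3 comparison (orange) and the Tgfbr1/2 comparison (blue), with filled symbols where the adjusted p was below 0.05. The filled symbols are Itga5 at 1.55 and Itgb3 at 1.28 in the Tgfbr1/2 comparison, and both genes lie below 0 in the Smad2/3 comparison.

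Itga8 encodes alpha-8, an RGD-binding partner of beta-1 found on fibroblasts and smooth muscle cells. Tgfbr1/2 DKO libraries held 20.3 and 18.7 CPM, against 40.3 and 30.4 CPM in Tcf21-Cre control libraries. Smad2/3 DKO libraries held 27.0 and 11.9 CPM, against 39.0 and 34.1 CPM in Postn-Cre control libraries. Every knockout library was thus below both of its controls, in contrast to Itga5 and Itgb3. Neither fold change passed the test, at -0.77 ± 0.21 on the log2 scale in the Tgfbr1/2 comparison (adjusted p = 0.0754) and -0.97 ± 0.36 in the Smad2/3 comparison (adjusted p = 0.25). Under DESeq2 the Tgfbr1/2 value passed (adjusted p = 0.0416), and with no low-count filter both did (adjusted p = 0.0359 and 0.0357). These were the only passes, 2 of 11 alternatives for the Tgfbr1/2 value and 1 of 11 for the Smad2/3 value. With 1 library left out the Tgfbr1/2 value ran between -0.90 and -0.60. The Smad2/3 value was -0.50 without Smad2/3 DKO HK16 and -1.67 without HK15. The antisense transcript E030013I19Rik overlaps exons of Itga8, and the library preparation as described does not mark strand, so reads of the pair could not be told apart.

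Itgav, the alpha-v chain shared by the TGF-beta-activating pairs, was almost level with control in both knockouts. It was measured at 474 and 507 CPM in Smad2/3 DKO libraries, against 442 and 525 CPM in Postn-Cre control libraries. Tgfbr1/2 DKO libraries held 251 and 276 CPM, against 299 and 255 CPM in Tcf21-Cre control libraries. The log2 fold changes were -0.03 ± 0.15 and 0.02 ± 0.20, and knockout and control ranges overlapped in both comparisons. The partly overlapping annotated gene Gm13684 adds an uncertainty to its counts.

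The collagen-binding alpha chains also gave no call. Itga11, whose product binds fibrillar collagen, was measured at 86.7 and 78.6 CPM in Smad2/3 DKO libraries, against 91.9 and 72.8 CPM in Postn-Cre control libraries. Its levels were 176 and 208 CPM in Tgfbr1/2 DKO libraries, against 185 and 326 CPM in Tcf21-Cre control libraries. Its log2 fold changes were -0.05 ± 0.20 and -0.34 ± 0.30, and the wide gap between the Tcf21-Cre control libraries exceeds either difference. Without control HK7 the Tgfbr1/2 value was 0.21. Itga1, whose product binds basement membrane and fibrillar collagens, lay between 56.1 and 91.5 CPM in all 8 libraries, with log2 fold changes of -0.23 ± 0.22 in Smad2/3 DKO cells and -0.05 ± 0.18 in Tgfbr1/2 DKO cells. Exons of Gm49395 overlap those of Itga1.

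Itga4, whose product binds fibronectin and the adhesion molecule VCAM-1, was the least abundant. Tgfbr1/2 DKO libraries held 7.85 and 5.75 CPM, against 11.7 and 12.0 CPM in Tcf21-Cre control libraries. Both knockout libraries lay below both controls, but the log2 fold change of -0.73 ± 0.28 did not pass the test (adjusted p = 0.183). In Smad2/3 DKO libraries Itga4 was at 13.3 and 13.5 CPM, within the Postn-Cre control values of 15.2 and 11.5 CPM. Exons of Cerkl, on the other strand, overlap Itga4.

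Among the beta chains other than beta-3, Itgb5 had the largest fold change in Smad2/3 DKO cells, which did not pass the test. Its product pairs only with alpha-v and binds vitronectin. Smad2/3 DKO libraries held 195 and 146 CPM, against 115 and 76.1 CPM in Postn-Cre control libraries. The knockout libraries were both higher, and the log2 fold change was 0.77 ± 0.23 (adjusted p = 0.139). The other 9 subunits had negative fold changes in that comparison, of which those of Itga4, Itga11 and Itgav turned positive, at no more than 0.022, with library totals as the only scaling. Itgb5 passed with DESeq2 (adjusted p = 0.0294), with no low-count filter (adjusted p = 0.00528) and without Postn-Cre control HK3 (1.12, adjusted p = 0.0222). It was smaller without Postn-Cre control HK4 (0.50, adjusted p = 0.358) and without Smad2/3 DKO HK15 (0.56, adjusted p = 0.524). Tgfbr1/2 DKO libraries held 173 and 182 CPM, inside the Tcf21-Cre control values of 150 and 240 CPM. Whether the effect on Itgb5 differs between the knockouts was not shown (0.83 ± 0.40 on the log2 scale, adjusted p = 0.311).

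Itgb1 and Itgb8 were not called in either knockout. Itgb1 was measured at 576 and 518 CPM in Smad2/3 DKO libraries, against 657 and 607 CPM in Postn-Cre control libraries, a log2 fold change of -0.27 ± 0.14 (adjusted p = 0.471). In Tgfbr1/2 DKO libraries it was at 679 and 720 CPM, against 720 and 674 CPM in Tcf21-Cre control libraries, a log2 fold change of 0.09 ± 0.21. Itgb8 encodes the beta chain that, with alpha-v, activates TGF-beta at the cell surface. It lay between 39.9 and 69.8 CPM in all libraries, with log2 fold changes of -0.13 ± 0.23 and 0.07 ± 0.20 in Smad2/3 DKO and Tgfbr1/2 DKO cells.

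**Figure D3:**
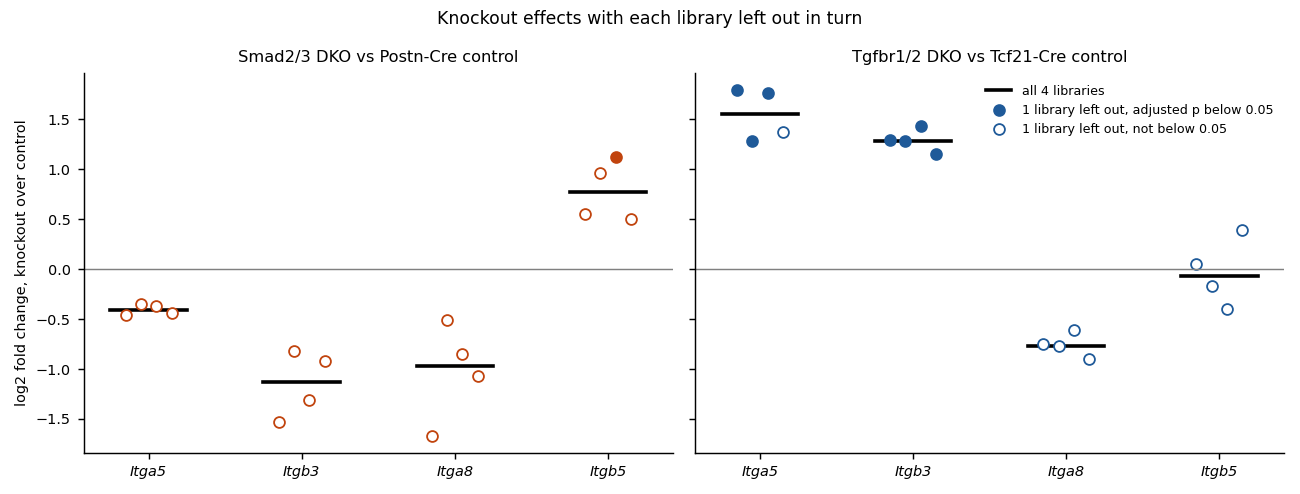
Log2 fold change of knockout over control (vertical axis) for 4 subunits in the Smad2/3 comparison (left) and the Tgfbr1/2 comparison (right), with all 4 libraries (line) and with each library left out (points, filled where the adjusted p was below 0.05). Itgb3 keeps filled points throughout in the Tgfbr1/2 comparison, between 1.16 and 1.43, while the value of Itga8 in the Smad2/3 comparison moves between -1.67 and -0.50.

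As a share of the summed CPM per kb of the alpha chains, Itga5 was lowest in the 2 Tcf21-Cre control libraries. Itga5 made up 51.2% and 55.4% of all alpha-chain RNA in Tgfbr1/2 DKO libraries, against 32.1% and 21.8% in Tcf21-Cre control libraries. Its share was 52.5% and 50.6% in Smad2/3 DKO libraries and 56.2% and 55.2% in Postn-Cre control libraries, so Tgfbr1/2 DKO cells lay within the range of the other run. Itga11 made up 18.3% and 18.2% in Tgfbr1/2 DKO libraries, against 24.6% and 41.6% in Tcf21-Cre control libraries. In the other run its share was 8.63% and 8.26% in Smad2/3 DKO libraries and 7.94% and 6.36% in Postn-Cre control libraries, below both groups of the Tgfbr1/2 comparison. Itgav made up 12.4% and 11.5% in Tgfbr1/2 DKO libraries, against 19.0% and 15.5% in Tcf21-Cre control libraries, and 22.5% and 25.4% in Smad2/3 DKO libraries, against 18.2% and 21.9% in Postn-Cre control libraries. These shares are levels of RNA and do not measure assembled receptors.

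Among the beta chains that pair with alpha-v, leaving out beta-1, Itgb5 was the main one in every library. Itgb3 made up 7.42% and 6.00% in Smad2/3 DKO libraries, against 15.3% and 26.2% in Postn-Cre control libraries. Tgfbr1/2 DKO libraries gave 21.5% and 19.7% for Itgb3, against 12.9% and 6.94% in Tcf21-Cre control libraries. The knockout shares of Itgb3 thus lay below both controls in one comparison and above both in the other. Itgb6, an epithelial partner of alpha-v, made up at most 0.873% of this set.

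**Figure D4:**
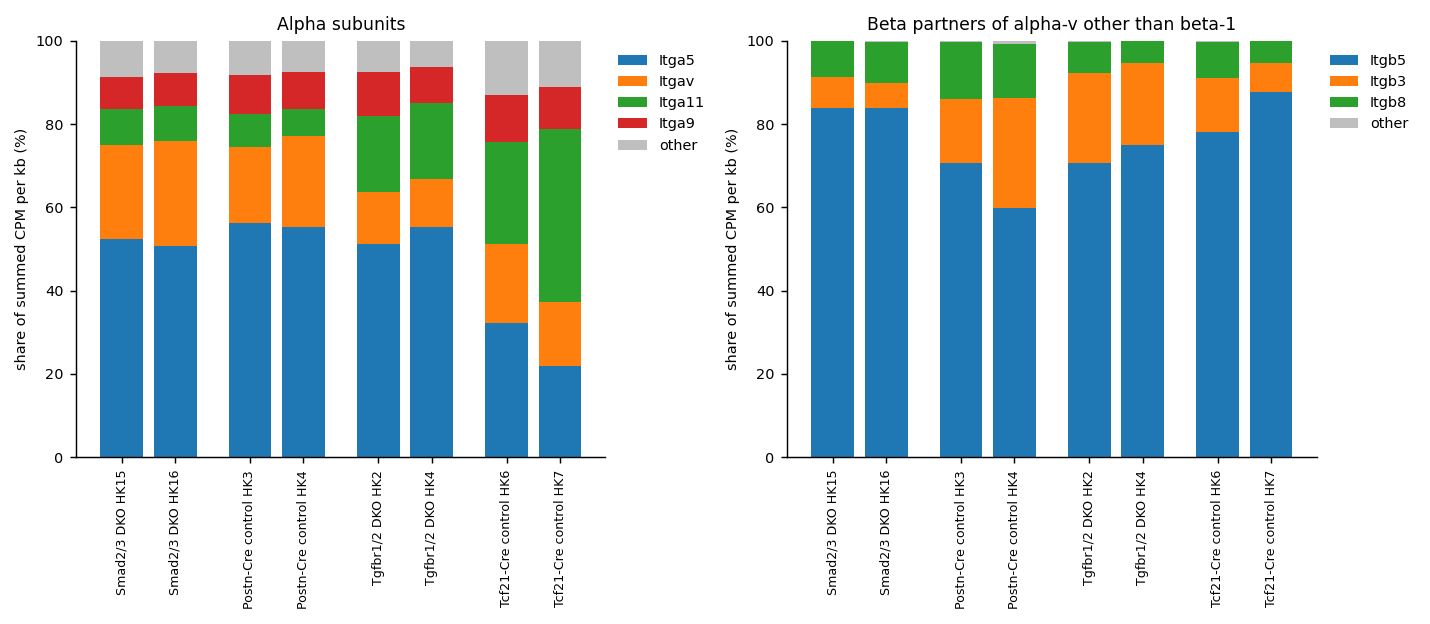
Share of summed CPM per kb (vertical axis, %) taken by alpha subunits (left) and by the beta partners of alpha-v other than beta-1 (right) in each library. Itga5 is the largest alpha segment in all libraries but Tcf21-Cre control HK7, where Itga11 takes 41.6%, and the Itgb3 segment is between 6.00% and 26.2%.

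The controls themselves differed widely, which frames every level above. In Postn-Cre control cells compared with Tcf21-Cre control cells, Itga5 was higher (log2 fold change 1.93 ± 0.22, adjusted p = 0.000154), as were Itgav (1.10 ± 0.18, adjusted p = 0.000914) and Itga1 (0.62 ± 0.20, adjusted p = 0.0343), and Itga11 was lower (-1.36 ± 0.28, adjusted p = 0.00342). Those 4 calls among 10 stand beside 34.9% of 17770 genes called (15.9% higher and 18.9% lower), in a contrast where run and driver change together. Control libraries did not overlap for 6 of the 10 genes, against 69.7% of all genes. The Itga1 call was lost without Postn-Cre control HK3 (0.31, adjusted p = 0.299), without Tcf21-Cre control HK6 (0.67, adjusted p = 0.0862) or HK7 (0.59, adjusted p = 0.156), without Smad2/3 DKO HK15 or HK16 (0.61 each, adjusted p of 0.0511 and 0.0512), in a fit of the 4 control libraries (0.67, adjusted p = 0.0555) and with library totals as the only scaling (0.33, adjusted p = 0.224). The median of all genes stood at -0.12 on the log2 scale in this contrast and at -0.41 with library totals only, and with that scaling the sign of Itgb1 turned (0.15 and -0.14). Itgb3 (0.71, adjusted p = 0.0511), Itgb8 (0.61, adjusted p = 0.0514) and Itgb5 (-0.75, adjusted p = 0.0606) did not pass the test. With 1 library left out, Itgb3 ran between 0.50 and 0.88 (adjusted p = 0.258 without Tcf21-Cre control HK7), Itgb8 between 0.32 and 0.82 (adjusted p = 0.340 without Postn-Cre control HK3) and Itgb5 between -1.12 and -0.31 (adjusted p = 0.493 without Tcf21-Cre control HK7). With library totals as the only scaling Itgb5 passed (-1.03, adjusted p = 0.00955), while Itgb3 stood at 0.41 (adjusted p = 0.249) and Itgb8 at 0.31 (adjusted p = 0.319). Postn, whose locus carries the MerCreMer in both groups of its run, was at 208 and 186 CPM in Postn-Cre control libraries and at 1615 and 3076 CPM in Tcf21-Cre control libraries. Tcf21, whose locus carries it in the other run, was at 26.2 and 25.6 CPM in Postn-Cre control libraries. In Tcf21-Cre control libraries Tcf21 was at 163 and 111 CPM. The source of these differences was not tested.

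The other 17 integrin subunits were mostly low. Itga9, which pairs with beta-1 and binds tenascin-C and osteopontin, was the highest, at 117 and 113 CPM in Smad2/3 DKO libraries, 160 and 153 CPM in Postn-Cre control libraries, 153 and 148 CPM in Tgfbr1/2 DKO libraries and 127 and 119 CPM in Tcf21-Cre control libraries. Neither knockout changed it past the threshold (-0.50 ± 0.16, adjusted p = 0.18, and 0.37 ± 0.18, adjusted p = 0.281). None of the 14 tested was called in Smad2/3 DKO cells, where 6 had an unadjusted p below 0.05 and DESeq2 called 2 lower. Over all 15760 genes tested there, 2139 had an unadjusted p below 0.05 and DESeq2 called 455 lower. In Tgfbr1/2 DKO cells 2 of 15 were called, against 3.94% of all genes tested, and both are leukocyte chains. Itgb2, the beta chain of leukocytes, was at 6.26 and 7.01 CPM in Tgfbr1/2 DKO libraries, against 0.754 and 1.47 CPM in Tcf21-Cre control libraries (2.65 ± 0.46, adjusted p = 0.0143). Itgam, its alpha partner on macrophages, was at 8.59 and 7.95 CPM, against 3.08 and 2.22 CPM (1.72 ± 0.34, adjusted p = 0.0231). Smad2/3 DKO libraries also held more Itgam, at 9.01 and 12.4 CPM, against 3.85 and 4.35 CPM in Postn-Cre control libraries, without a call. Collagen-binding Itga2 and Itga10 lay between 6.38 and 19.8 CPM and between 4.04 and 17.1 CPM in all libraries. The laminin-binding Itga6 was at 7.72 and 5.03 CPM in Smad2/3 DKO libraries, against 25.7 and 12.6 CPM in Postn-Cre control libraries (adjusted p = 0.105).

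Macrophage markers were also higher in Tgfbr1/2 DKO cells. The summed level of 11 of them was between 160 and 169 CPM in Tgfbr1/2 DKO libraries, against 47.0 to 62.1 CPM in Tcf21-Cre control libraries, with none at 0. Of the 11, 6 were called higher, against 2.64% of all genes tested, and the list includes Itgam and Itgb2, already given above. Lyz2 alone was at 82.5 and 90.6 CPM, against 9.90 and 26.6 CPM. Cd68 was at 18.4 and 15.5 CPM, inside its control values of 22.1 and 13.8 CPM. The sum in Smad2/3 DKO cells was 30.4 to 30.5 CPM, against 27.9 to 36.4 CPM in Postn-Cre control cells. That sum covers opposite signs. Of 8 markers tested there, 7 had a negative log2 fold change and 1 a positive one, with a median of -0.87. Emr1 and Ptprc were at 0 in Smad2/3 DKO cells, while Itgam lay above both of its controls. None of the 8 was called by edgeR or DESeq2, and 1 had an unadjusted p below 0.05, as did 2139 of all 15760 genes tested. Beta-3 is also the platelet integrin chain. Its platelet partner Itga2b was at 3.34 and 2.37 CPM in Tgfbr1/2 DKO libraries, against 3.19 and 2.36 CPM in Tcf21-Cre control libraries, while Pf4, a platelet chemokine that macrophages can also make, was at 8.31 and 9.89 CPM, against 3.08 and 2.77 CPM (1.72 ± 0.33, adjusted p = 0.0219). The whole platelet list of 6 summed to between 16.7 and 17.6 CPM in Tgfbr1/2 DKO libraries, against 12.0 to 15.7 CPM in Tcf21-Cre control libraries. The part of these cells in the Itga5 and Itgb3 results was not tested. The endothelial list summed to 510 to 531 CPM in Tgfbr1/2 DKO libraries, against 400 to 445 CPM in Tcf21-Cre control libraries, with Eng alone called (0.78 ± 0.18, adjusted p = 0.0423), and among pericyte and smooth muscle markers Acta2 was called (1.09, adjusted p = 0.0141). In bulk RNA, more cells of a type and more RNA per cell cannot be told apart.

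RNA of many genes for the matrix proteins these receptors bind fell in Smad2/3 DKO cells. Of 34 ligand genes tested, 16 fell and 0 rose, against 0.857% and 0.451% of all genes tested. DESeq2 called 17 lower and 2 higher, against 455 lower and 314 higher among all 15760 genes tested. The median log2 fold change of the ligand genes was -0.77. The summed level of the 10 endothelial markers was between 145 and 224 CPM in Smad2/3 DKO libraries, against 236 to 451 CPM in Postn-Cre control libraries. All 10 had a negative fold change, with a median of -1.43 on the log2 scale, and 0 were called by edgeR. An unadjusted p below 0.05 was found for 5 of the 10 and for 2139 of all 15760 genes tested. DESeq2 called 1 of the 10 lower, against 455 of the 15760. The part of these markers in the ligand result was not tested. The fibronectin gene Fn1, whose product is the ligand of alpha-5 beta-1, was at 1435 and 1291 CPM in Smad2/3 DKO libraries, against 2716 and 2851 CPM in Postn-Cre control libraries (-1.09 ± 0.14, adjusted p = 0.00365). The fibrillar collagen genes Col3a1 (-2.15 ± 0.15), Col1a1 (-1.69 ± 0.17) and Col1a2 (-1.44 ± 0.14), bound through alpha-1 and alpha-11, fell with adjusted p-values of at most 0.00108, although Itga1 and Itga11 gave no call. The microfibrillar collagen VI genes Col6a1 (-1.32 ± 0.17) and Col6a3 (-1.19 ± 0.16) fell too. Osteopontin (Spp1), a ligand of alpha-v beta-3, stood at 0.0039 ± 0.24 and thrombospondin-1 (Thbs1) at -0.11 ± 0.13.

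The Tgfbr1/2 knockout gave a different picture, in which 3 of 35 ligand genes rose and 1 fell, with a median of 0.15. Over all genes tested there, 2.64% were called higher and 1.31% lower. Tenascin-C (Tnc), a matrix protein of wound healing bound by alpha-9 beta-1 and alpha-v beta-3, was at 1164 and 1310 CPM in Tgfbr1/2 DKO libraries, against 183 and 267 CPM in Tcf21-Cre control libraries (2.54 ± 0.27, adjusted p = 0.00126). The basement membrane collagen genes Col4a1 (1.11 ± 0.23, adjusted p = 0.025) and Col4a2 (1.03 ± 0.21, adjusted p = 0.0284) also rose. Tgfbi, a TGF-beta-induced ligand of several integrins, fell (-1.07 ± 0.19, adjusted p = 0.0163). Fn1 was at 2172 and 2842 CPM, inside the Tcf21-Cre control values of 1802 and 4432 CPM, so the ranges of the fibronectin gene overlapped where those of Itga5 did not. Tnc, Col4a1 and Col4a2 fell in Smad2/3 DKO cells (-1.23 ± 0.17, -1.03 ± 0.14 and -1.16 ± 0.16), and their knockout effects differed by -3.77 ± 0.34, -2.15 ± 0.25 and -2.20 ± 0.26 on the log2 scale, with adjusted p-values of at most 0.00315. In all, 10 of 35 ligand genes were called lower for the difference and 0 higher, against 1.17% and 0.664% of all genes tested. DESeq2 called 17 lower and 0 higher, against 735 lower and 415 higher among all 17770 genes tested.

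**Figure D5:**
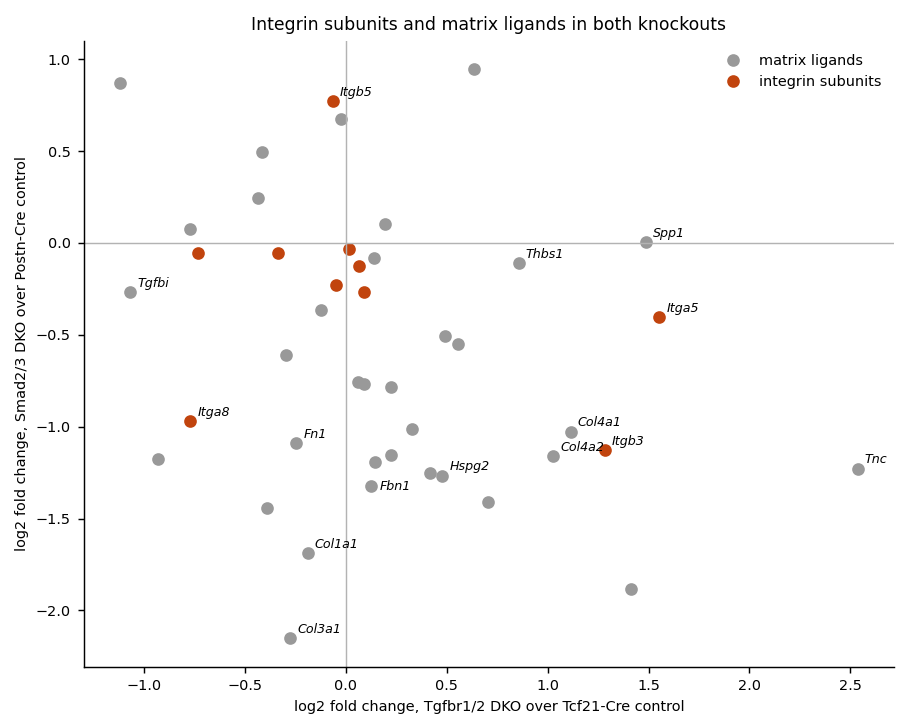
Log2 fold change in the Tgfbr1/2 comparison (horizontal axis) against that in the Smad2/3 comparison (vertical axis), a point for each integrin subunit (red) and each tested ligand gene (grey), with some of the genes named in the text labelled. Itga5 (1.55, -0.40) and Itgb3 (1.28, -1.13) lie in the lower right quadrant with Tnc (2.54, -1.23), Col4a1 and Col4a2.

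Inside the cell, integrins are tied to actin by adaptor proteins. Of 42 adhesion genes tested in Tgfbr1/2 DKO cells, 3 rose and 0 fell, against 2.64% and 1.31% of all genes tested. The 3 that rose were filamin A (Flna, which binds beta tails, 0.95 ± 0.21, adjusted p = 0.0336), the tetraspanin Cd151 (0.85 ± 0.18, adjusted p = 0.0305) and the small heat shock protein Hspb1 (0.87 ± 0.20, adjusted p = 0.0441). DESeq2 called 4 higher and 0 lower, against 719 higher and 415 lower among all 16658 genes tested. Of 41 tested in the Smad2/3 comparison, 1 fell and 0 rose, against 0.857% and 0.451% of all genes tested. The gene that fell was the actin-associated Pdlim5 (-0.75 ± 0.15, adjusted p = 0.0365). There DESeq2 called 2 lower and 0 higher, against 455 lower and 314 higher among all 15760 genes tested. The difference between knockout effects was called lower for Flna (-1.44 ± 0.24, adjusted p = 0.0177) and for Rsu1 (-1.01 ± 0.22, adjusted p = 0.0454), a partner of the ILK and PINCH complex.

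Of the genes for storing latent TGF-beta and for its release, in which alpha-v beta-8 and its relatives act, 1 of 13 tested fell in Smad2/3 DKO cells. In Tgfbr1/2 DKO cells 0 of 12 were called, 4 had an unadjusted p below 0.05 and DESeq2 called 1. Over all 16658 genes tested there, 3332 had an unadjusted p below 0.05 and DESeq2 called 1134. Over all genes tested, 1.31% were called in the Smad2/3 comparison and 3.94% in the Tgfbr1/2 comparison. Ltbp1, which fastens latent TGF-beta to the matrix, was at 237 and 239 CPM in Smad2/3 DKO libraries, against 440 and 450 CPM in Postn-Cre control libraries (-0.96 ± 0.14, adjusted p = 0.00806). In Tgfbr1/2 DKO libraries it was at 324 and 348 CPM, against 353 and 260 CPM in Tcf21-Cre control libraries. Its effects differed by -1.19 ± 0.25 (adjusted p = 0.0411), as did those on Mmp14, a membrane-bound protease (-1.30 ± 0.27, adjusted p = 0.0366). Tgfb1 stood at -0.07 ± 0.28 in Smad2/3 DKO cells and at 0.52 ± 0.21 in Tgfbr1/2 DKO cells and was not called.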

How the data were processed

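The expected counts per gene were made and deposited by the authors, in 1 table per sequencing run, with mm10 named in the submitters' processing notes. Alignment and counting tools were not given in the sources used here. Per the labels' protocols, libraries came from amplified RNA (Ovation RNA-Seq System v2) cut by tagmentation, with no strand-marking step described. The authors also deposited log2 fold changes, which are quoted only where named as theirs. Rows sharing a symbol were summed (38087 rows to 34399 symbols) and rounded, and CPM are relative to library totals. Annotation and exon lengths came from GENCODE (GRCm38), which may differ from the authors'.

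Each knockout was compared with the control of its own run by a robust quasi-likelihood test in edgeR 4.0.16 (R 4.3.3), after filterByExpr and TMM scaling, at a threshold of 0.05. The difference of the knockout effects and the contrast of the controls came from a fit of all 8 libraries. SE is the absolute log2 fold change over the square root of F. P-values were adjusted over all genes tested. Alternatives were RLE size factors, library totals only, no low-count filter, DESeq2 1.42.0, no robust estimation, unsummed rows, a fit of all 8 or of the 4 control libraries, and each library left out, where a lone library is assumed to vary like the other groups. The order by principal-transcript length was added after seeing the data. A 0 in a library would allow up to 3 counts, 0.092 to 0.14 CPM, for counting error only, and amplified reads are not independent molecules.

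The members and lists were chosen with earlier results of these data known. Genes named besides the 10 are, in each list, the called other integrins and the 4 highest, up to 6 of the called ligand, adhesion or latent TGF-beta genes by p (otherwise the 3 smallest p), the targeted genes and leading markers; the others were named after their values were seen.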

Additional observations from a re-analysis of the deposited data

Results flagged for a closer look

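The effect of the Smad2/3 knockout minus that of the Tgfbr1/2 knockout passed the test for 14 of the named genes. Each time the value was lower in the Smad2/3 comparison. Some ligand, adhesion and latent TGF-beta genes were named for their p-values in this same test. The count of 14 was therefore partly set by the choice of genes. Over all 17770 genes tested, 1.83% were called, 118 higher and 208 lower. Among integrin subunits the called genes were Itgb3, at -2.42 on the log2 scale, and Itga5, at -1.96. Among the named matrix ligands they were Tnc at -3.77, Col4a2 at -2.20, Col4a1 at -2.15, Col3a1 at -1.88, Hspg2 at -1.75, Fbn1 at -1.68, Col6a1 at -1.45 and Col6a3 at -1.35. Among adhesion genes they were Flna at -1.44 and Rsu1 at -1.01, and among genes of latent TGF-beta Mmp14 at -1.30 and Ltbp1 at -1.19. Sequencing run and Cre driver change together with the targeted genes, so the source of these differences cannot be told apart.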

How the results depend on the processing

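Groups of 2 limit all results. No paired analysis was possible because the groups compared share no replicate number. The counts of called genes rose with no low-count filter (819 for Smad2/3, 1229 for Tgfbr1/2 and 1195 for the difference) and with DESeq2 (769, 1134 and 1150), against 206, 657 and 326, and a fit of all 8 libraries called 299 in the Tgfbr1/2 comparison. With 1 library left out they ran between 102 and 297, between 272 and 497, between 89 and 302, and between 3646 and 6507 for the controls, against 6193. Of the 10 subunits, 3 were called in the Smad2/3 comparison with no low-count filter and 2 with DESeq2, and with 1 library left out 0 to 1, in the Tgfbr1/2 comparison 1 to 2 and for the difference 1 to 2. With library totals only, calls split into 90 higher and 108 lower (Smad2/3; otherwise 71 and 135), 332 and 249 (Tgfbr1/2; otherwise 439 and 218), 158 and 160 (difference; otherwise 118 and 208) and 1906 and 4523 (controls; otherwise 2834 and 3359), and the median of all genes for the difference moved to 0.16. The same scaling turned the sign of uncalled values near 0, giving 0.0053 for Itga4, 0.0054 for Itga11 and 0.022 for Itgav (Smad2/3), -0.070 for Itgav and -0.0062 for Itgb8 (Tgfbr1/2), 0.092 for Itgav (difference) and -0.14 for Itgb1 (controls). Leaving out 1 library turned others, all uncalled. In the Smad2/3 comparison Itga1 ran between -0.47 and 0.060, Itga4 between -0.25 and 0.18, Itga11 between -0.22 and 0.14, Itgav between -0.14 and 0.083 and Itgb8 between -0.34 and 0.14. In the Tgfbr1/2 comparison Itga1 ran between -0.13 and 0.046, Itga11 between -0.72 and 0.21, Itgav between -0.12 and 0.16, Itgb1 between -0.020 and 0.21, Itgb5 between -0.40 and 0.39 and Itgb8 between -0.12 and 0.25. For the difference Itga1 ran between -0.44 and 0.11, Itga8 between -0.92 and 0.26, Itga11 between -0.27 and 0.64, Itgav between -0.23 and 0.071 and Itgb8 between -0.43 and 0.067. The cause was not tested. Itgb3 kept its call in the Tgfbr1/2 comparison under 11 of 11 alternatives and for the difference under 14 of 14, and Itga5 under 10 of 11 and 13 of 14.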

Other observations

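In the authors' deposited table for the Tgfbr1/2 comparison, the log2 fold change of Itga5 was 1.46 and that of Itgb3 1.21, of the same sign as the values found here. In that table Itga4 is listed at 0, although its counts were 256 and 172 in Tgfbr1/2 DKO libraries and 342 and 350 in Tcf21-Cre control libraries. The authors' deposited table for the Smad2/3 comparison gave Itgb3 at -1.10, Itga8 at -1.03 and Itgb5 at 0.85.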
